A study of Caenorhabditis elegans with 8 samples.

Results

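Chemoreceptor genes of Caenorhabditis elegans were described in wild-type animals and in animals with mutated histone H3.3 genes, at 2 stages. A gene was taken as a chemoreceptor gene where its symbol was that of a serpentine receptor family (sra, srab, srb, srbc, srd, sre, srg, srh, sri, srj, srm, srn, srr, srsx, srt, sru, srv, srw, srx, srxa, srz or str) followed by a number. Only genes above a count minimum were in the deposited tables, so membership also depended on counts. The rule itself used names alone and no measured value. It found 255 members among the 16606 genes listed in either deposited table, namely 83 of 13692 genes in the embryo table and 222 of 16249 genes in the table of first-stage larvae (L1). Of these, 50 were listed at both stages, 33 in embryos alone and 172 in L1 alone. The Ensembl annotation called 229 of them protein coding and 26 pseudogenes. It names 1 of the protein-coding members, srt-58 in the deposited table, as nhr-290, a nuclear hormone receptor symbol.

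RNA was measured in whole animals of the wild-type strain N2 and of FAS43, as mixed-stage embryos and as L1 larvae, all cultured at 20 °C. FAS43 carried the allele uge44 of his-69 and his-70 together with his-72(tm2066), his-71(ok2289) and his-74(uge18), so that every H3.3 gene named in its genotype was mutated. There were 2 libraries per strain and stage, 8 in all, each prepared with a stranded mRNA kit from an input of 1000 ng RNA and read as 50 bases. The labels do not tell separate cultures from repeated preparations, so p-values reflect a spread that could be technical. The age and feeding state of the larvae and the mix of embryonic stages were not given either.

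Libraries held from 17408914 to 30127179 counts. His-72 had 59440 and 25296 counts in N2 embryos against 29 and 32 in FAS43, and 10881 and 11314 in N2 L1 against 98 and 162. His-71 had 6 counts or fewer in every FAS43 library and 2412 or more in every N2 library. His-74 was still counted in FAS43, with 1347 and 2063 counts in embryos against 3587 and 1177 in N2, and 745 and 301 in L1 against 319 and 294. The L1 table gave his-70 13 and 41 counts in N2 and 0 in both FAS43 libraries, and his-69 was in neither table. All 20 pan-neuronal genes and all 30 oocyte and early-embryo genes of fixed lists were listed at both stages. The embryo libraries differed within genotypes: the summed level of the oocyte and early-embryo genes was 6458 and 4453 counts scaled to library size (CPM) in N2 replicates 1 and 2 and 2290 and 8080 CPM in FAS43 replicates 1 and 2. Body wall muscle genes took 2592, 5926, 4166 and 2615 CPM in the same order. In L1 the oocyte and early-embryo genes took 1050 and 508 CPM in N2 and 3449 and 1318 CPM in FAS43.

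Serpentine chemoreceptors are membrane receptors that couple to G proteins and sit mainly on the cilia of sensory neurons of the head and tail, where they detect odours, tastes and pheromones. A single sensory neuron of the worm makes many of them, and most are made in very few cells. Their signals pass to the cyclic-nucleotide-gated channel of TAX-2 and TAX-4 or to the channels OSM-9 and OCR-2, and ODR-4 and ODR-8 help to bring receptors to the cilium. By descent the families are grouped as Str (srd, srh, sri, srj, srm, srn, str), Sra (sra, srab, srb, sre), Srg (srg, srt, sru, srv, srx, srxa) and families that stand alone (srbc, srr, srsx, srw, srz). In whole animals, fewer cells of a type and less RNA per cell cannot be told apart.

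Most chemoreceptor genes were below the level at which a gene was listed. A gene was listed where 2 or more libraries of its stage held 10 counts or more of it. Of the 1309 protein-coding genes that the annotation names by the same rule, 200 (15.3%) were listed in L1 and 72 (5.50%) in embryos. Of all 19985 annotated protein-coding genes, 75.9% were listed in L1 and 64.9% in embryos. Genes that were not listed were not analysed here.

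Families differed in how much of them was listed. Among families of more than 1 gene, the small srr family had the highest share, with 6 of 9 genes (66.7%) listed in L1 and 44.4% in embryos. Among families with at least 30 annotated genes, sri had the highest share in L1, 21 of 61 (34.4%), followed by srv (26.7%) and sre (22.2%). The 2 largest families were listed less fully, srh with 31 of 220 genes (14.1%) and str with 20 of 193 (10.4%). The lowest shares in L1 were those of srz (1.59%), srxa (5.88%), srw (8.26%) and srbc (8.45%). In embryos sre and the small srm family followed srr, both at 16.7%, and str had 6.74%. The superfamily shares in L1 were 20.2% for Sra, 18.1% for Srg, 15.7% for Str and 9.34% for the families that stand alone. These are descriptions of presence above a count minimum and depend on depth.

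**Figure D1:**
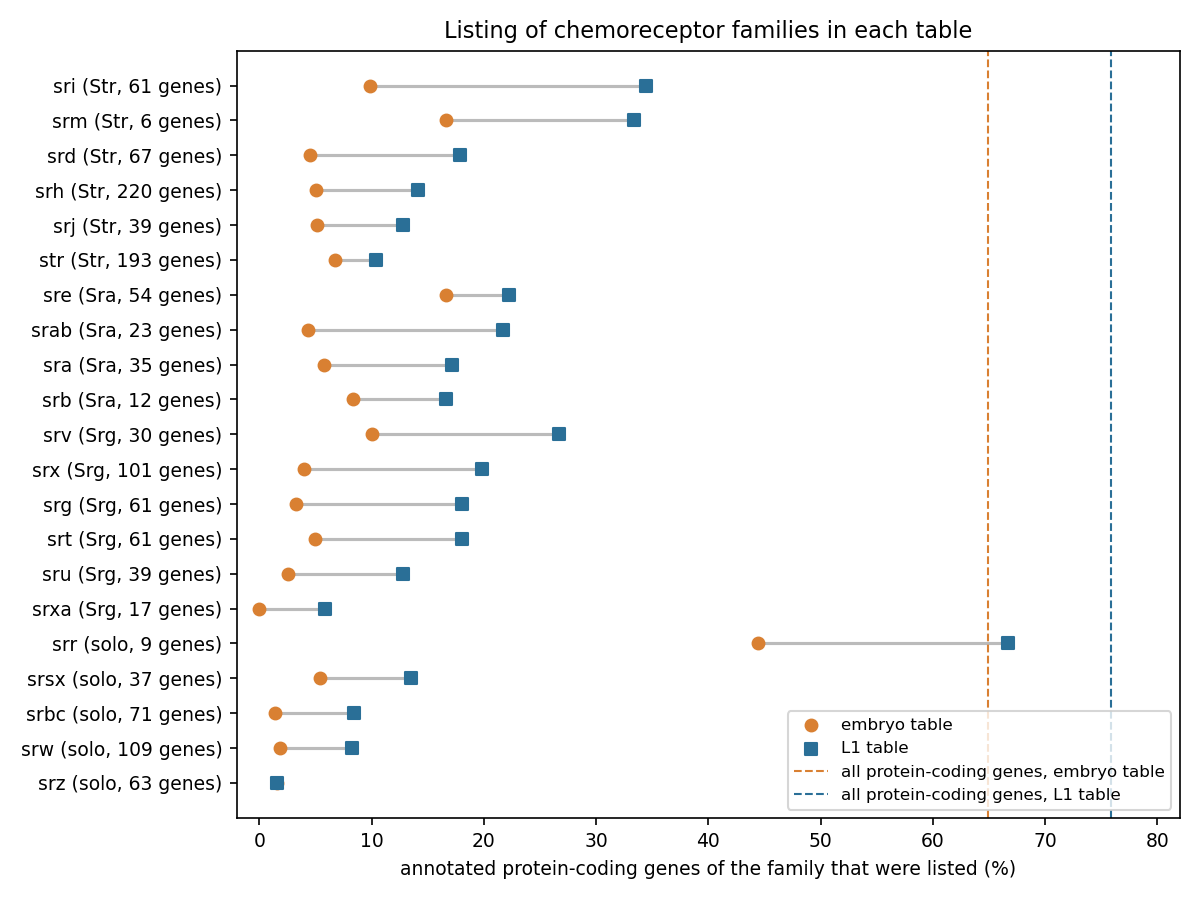
Share of the annotated protein-coding genes of each family (x axis, percent) that was listed in the embryo table (orange circles) and in the L1 table (blue squares), by superfamily; dashed lines give the shares over all protein-coding genes, 64.9% and 75.9%. Every family lay below the line of its table, srr came nearest with 44.4% and 66.7%, both symbols of srz fall on 1.59%, and srn, a family of 1 annotated gene, is left out.

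Chromosome V held 149 of the 255 members (58.4%), against 68.0% of the annotated chemoreceptor genes and 24.99% of all protein-coding genes. Chromosome II held 56 members (21.96%) and 12.9% of the annotated chemoreceptors. The share of annotated chemoreceptor genes listed in L1 was 25.4% on II, 26.5% on I and 13.3% on V. There were 9 runs of 3 or more members spaced by at most 10 kb. On II these included sri-74, sri-36 and sri-39, then sri-47, sri-57, sri-55 and sri-59, and then sri-29, sri-30, sri-28 and sri-31. Of the 50 members listed at both stages, 20 (40%) shared exon bases with another gene, against 34 of 172 (19.8%) listed in L1 alone and 9 of 33 (27.3%) in embryos alone. Strand does not separate reads of such members from those of genes that overlap them on the same strand. For overlaps on the other strand this depended on the strand setting of the counting, which was not given.

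The listed members were themselves low. The median member had a mean of 0.717 CPM in L1 and 0.747 CPM in embryos, against 13.2 and 19.3 CPM for the median listed gene. The median member had 72.5 counts over the 4 L1 libraries together and 73 over the 4 embryo libraries. A mean of 5 CPM or more was reached by 13 members in L1 and by 2 in embryos.

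A few genes carried much of the family's RNA. In N2 larvae srr-4 and srw-85 together held 42.8% of the summed member CPM, and the 10 highest members held 62.3%. In N2 embryos the same pair held 23.1%, and the 10 highest held 50.6%. The srw family resembles peptide receptors more than most other serpentine families do.

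Levels are compared between genes per kb of coding length (exonic length for pseudogenes) as means of N2. In L1 the order was srw-85 at 163 CPM per kb, srr-4 at 131, srw-86 at 110, srg-31 at 30.8, srr-6 at 22.9 and srt-42 at 15.2. The N2 libraries of srw-85 and srr-4 were apart, as were those of srw-86 and srg-31, while srr-4 and srw-86, srg-31 and srr-6, and srr-6 and srt-42 overlapped. The place of srw-86 rests on its short coding length of 273 bases; per kb of its 597 exonic bases it had 50.5 CPM. The same 6 genes led on the exonic scale and in plain CPM, but there srr-4 came before srw-85, with 110.3 against 108.5 CPM per exonic kb. Some of them were neighbours on chromosome V. Srw-86 (V:19400077-19400719) ended 28.7 kb before srw-85 (V:19429387-19431136), both on the minus strand, and srr-6 (V:5012803-5015219) ended 4.004 kb before srr-4 (V:5019224-5022363), both on the plus strand (WBcel235).

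Srr-4 had 134.8 and 183 CPM in the N2 L1 libraries and 110 and 92.8 CPM in those of FAS43. Srw-85 had 145 and 164 CPM in N2 and 114 and 137 CPM in FAS43. For both genes the strains were apart in L1, with FAS43 lower. The same held for 39.1% of the members tested and 14.2% of all genes. Neither gene passed the test between strains. Srw-86 had 18.9 and 41.4 CPM in N2 and 17.4 and 32.4 CPM in FAS43, and its strains overlapped. Below these genes, the highest members of the other families with at least 3 listed members in L1 were srv-1 (13.4 CPM per kb), srh-71 (10.2), sri-74 (7.93), sre-23 (5.92), str-176 (5.65), srx-45 (5.23), srj-23 (4.98), srd-32 (4.68), sru-40 (3.50), srab-14 (3.46), the pseudogene srsx-20 (3.46), sra-37 (2.36) and srbc-20 (2.196).

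In embryos srr-4 led with 13.4 CPM per kb, followed by srw-85 with 11.4, str-173 with 4.76, the pseudogene str-179 with 4.56, srt-63 with 4.44 and str-31 with 4.21. The N2 libraries of srw-85 and str-173 were apart, and each other neighbour pair in that order overlapped. Srr-4 had 7.86 and 24.5 CPM in N2 embryos and 24.7 and 11.8 CPM in FAS43, so replicates of a strain differed more than the strain means. Str-173 shared exon bases with genes on both strands. In the other families with at least 3 members listed in embryos, the highest was srj-9 (4.12 CPM per kb), srh-71 (3.85), srv-1 (2.89), sri-57 (1.80), sre-13 (1.36), srd-32 (1.04) and srx-98 (0.853).

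**Figure D2:**
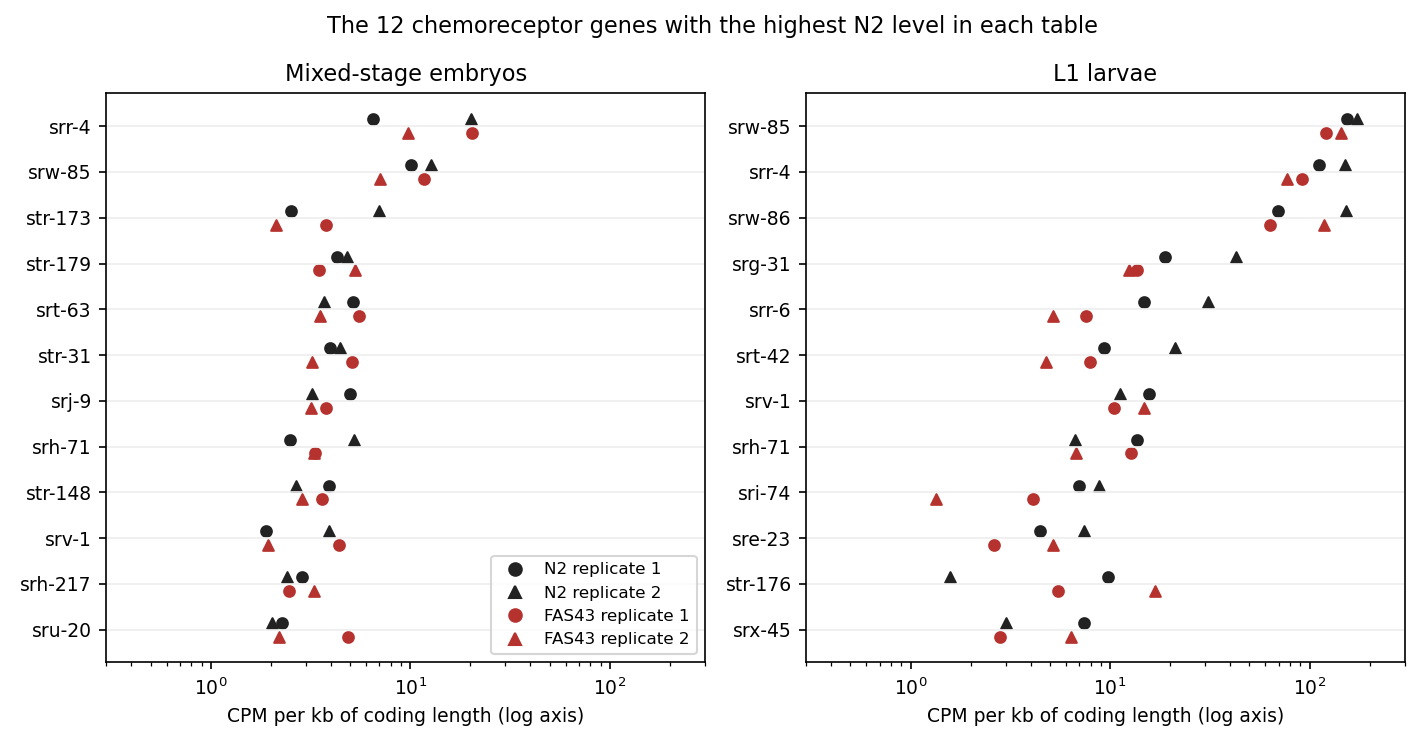
The 12 members with the highest N2 level in each table, as CPM per kb of coding length in each library (log x axis, the same range in both panels; black N2, red FAS43, circles replicate 1, triangles replicate 2). The N2 L1 libraries of srw-85, srr-4 and srw-86 stand between 69.3 and 173 CPM per kb, and the highest N2 embryo value is 20.3, for srr-4.

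Of 24 genes of these families with a published neuron or ligand, 4 were listed in L1, none in embryos, and the others in neither table. Srx-43, a receptor for an ascaroside pheromone in the ASI neurons, was the highest of them at 5.18 CPM per kb in N2, with 3.66 and 6.25 CPM in N2 and 3.59 and 1.17 CPM in FAS43. Srx-44, which begins 275 bases beyond it on chromosome V, had 0.803 and 0.961 CPM in N2 against 0.412 and 0.140 CPM. Sra-6, a marker of the ASH and ASI sensory neurons, had 0.771 and 0.694 CPM in N2 and 0.524 and 0.652 CPM in FAS43. Sra-11, known from interneurons that include AIY, had 1.09 and 0.641 CPM against 0.636 and 0.419 CPM. All 4 were lower in both FAS43 libraries than in both N2 libraries, as were 39.1% of the members tested and 14.2% of all genes, and none passed the test between strains. Odr-10, the diacetyl receptor of the AWA neurons and outside the naming rule, was listed in L1 alone, at 7.58 and 5.07 CPM in N2 and 6.18 and 7.97 CPM in FAS43.

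Among the 33 members listed in embryos alone, the highest in N2 were srh-33, srm-1, sra-33, str-81 and the pseudogene srd-52. Srh-33 had 1.56 and 0.560 CPM in N2 and 0.613 and 1.80 CPM in FAS43. Sra-33 had 1.34 and 0.639 CPM against 1.18 and 1.24 CPM. No member of this class had more than 114 counts over the 4 embryo libraries, and its median was 49. Because L1 counts of these genes were not given, nothing is said of a fall between stages.

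Between stages, chemoreceptor genes listed in both tables were more often higher than lower in N2 larvae. All 8 libraries were fitted together with edgeR's quasi-likelihood test, and genes with a Benjamini-Hochberg adjusted p under 0.05 are called. Of the 50 members tested in N2, 17 (34.0%) rose from embryo to L1, where 22.6% of all 13335 genes did, and 4 (8%) fell, where 16.2% of all genes did. The median member had a log2 fold change of 0.95, and the median gene 0.00. The 172 members listed in L1 alone and the 33 listed in embryos alone could not be tested, so these counts describe members expressed at both stages. The tables were counted separately per stage, and levels set across them assume that they were counted alike. CPM beside a stage comparison was scaled over all 8 libraries and so differs slightly from the CPM within 1 stage given elsewhere for the same library.

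The largest rise was that of srw-86, from 0 and 0.391 CPM in N2 embryos to 19.7 and 43.6 CPM in N2 L1, or 7.29 on the log2 scale (SE 1.18, edgeR adjusted p = 0.000423). With 1 library at 0, this fitted value depends on the prior count. Srg-31 rose from 0.145 and 0.462 CPM to 18.3 and 42.05 CPM (6.61, SE 0.975, edgeR adjusted p = 0.00025). Srw-85 rose from 9.30 and 10.6 CPM to 151 and 172 CPM (4.02, SE 0.593, edgeR adjusted p = 0.00025). In these 3 genes every L1 library of both strains was above every embryo library.

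Srr-4 rose from 7.64 and 21.8 CPM in N2 embryos to 140 and 193 CPM in N2 L1 (3.50, SE 0.657, edgeR adjusted p = 0.000943). Srr-6 rose by 3.83, srt-42 by 3.80 and sre-23 by 3.54 on the log2 scale. Srt-42 shares exon bases with Y46H3A.4 and sre-23 with nol-16, both on the other strand. Srr-6 shares them with 21ur-14932 on the same strand. Str-204 (3.42), srx-45 (2.97), srv-1 (2.40), str-144 (2.38), srd-32 (2.36), sre-14 (2.32), srh-2 (2.24), srsx-25 (2.17), srr-2 (2.14) and srd-70 (2.07) made up the rest of the 17. They came from all superfamilies. Of these, srx-45, srv-1 and srsx-25 share exon bases with a gene on the other strand, and srh-2 with one on the same strand. When each library was left out in turn, srw-85, srw-86, srg-31, srr-4 and srt-42 passed the test in all 8 fits, and the other 12 lost their call in at least 1. The 21 calls of both directions became 5 without N2 embryo replicate 1, 8 without N2 L1 replicate 2 and 10 without N2 L1 replicate 1.

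The 4 members that fell in N2 were at 5 CPM or less in every library. Srj-9 went from 4.996 and 2.95 CPM in N2 embryos to 0.735 and 0.731 CPM in N2 L1 (log2 fold change -2.43, SE 0.772, edgeR adjusted p = 0.0197). Srh-217 went from 2.75 and 2.13 to 0.568 and 0.394 CPM (-2.32, SE 0.743, edgeR adjusted p = 0.0207). It shares exon bases with Y113G7B.27 and anr-37 on the other strand. Sri-57 (-2.80) and the pseudogene sri-59 (-2.63) share exon bases on the same strand, so their counts cannot be told apart and may be 1 signal. None of the 4 kept its call in every fit that left out 1 library.

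In FAS43, 5 of the 50 members (10%) rose from embryo to L1, where 15.8% of all genes did, and 1 (2%) fell, where 9.66% did. The median member stood at 0.43. The members that rose were srw-86 (5.50, SE 1.08, edgeR adjusted p = 0.00319), srg-31 (4.08), srw-85 (3.79), sre-23 (3.099) and srr-4 (2.41), and the one that fell was srj-9 (-2.47, SE 0.775, edgeR adjusted p = 0.0282). All 6 were called in N2 as well, from other libraries. Only srw-85 passed in all 8 fits that left out 1 library. The count in FAS43 ran from 1 without FAS43 embryo replicate 2 to 12 without FAS43 L1 replicate 1.

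The smaller count in FAS43 does not show that the stages differed less there. In the test of the difference itself, 0 of the 50 members were called by edgeR, where 0% of all genes were. The differences were negative for 41 of 50 members, with a median of -0.52, and 48.9% of all genes had a negative one. The unadjusted p was under 0.05 for 2 members, both lower (1.43% of all genes were lower at that threshold and 0.06% higher), and DESeq2 called 0. These 2, named after their values were seen, were srr-6 (-2.78, SE 1.21, edgeR adjusted p = 0.9986) and srg-31 (-2.53, SE 1.15, edgeR adjusted p = 0.9986). Srr-6 had 0.760 and 3.38 CPM in N2 embryos, 6.52 and 1.24 CPM in FAS43 embryos, 18.9 and 40.02 CPM in N2 L1 and 9.05 and 6.92 CPM in FAS43 L1.

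The embryo libraries that stood high for larval genes also stood high for these members. N2 replicate 2 and FAS43 replicate 1 were both above the other 2 embryo libraries for 12 of the 17 members that rose in N2 (70.6%) and for 72.6% of all genes that rose. They were so for 0 of the 4 members that fell, and for 0.742% of all genes that fell. These were also the 2 embryo libraries with the most body wall muscle RNA and the least oocyte and early-embryo RNA given above. The part of embryo age in the stage differences was not tested.

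**Figure D3:**
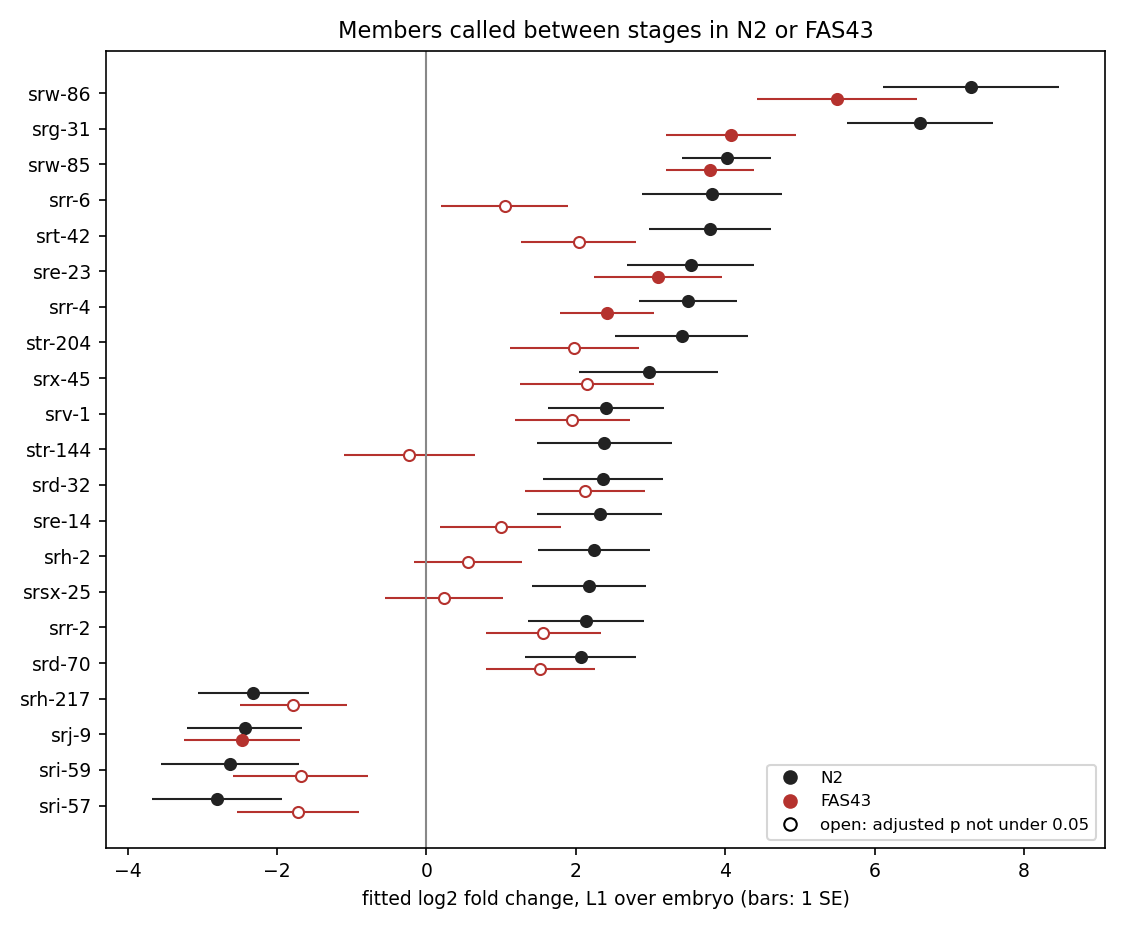
Fitted log2 fold change of L1 over embryo (x axis) with 1 SE for the 21 members called in N2 or FAS43 (black N2, red FAS43; open symbols did not pass in that strain). Each of the 4 genes that fell in N2 also has a negative value in FAS43, and str-144 alone among the others changes sign, at 2.38 in N2 and -0.23 in FAS43.

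In L1, chemoreceptor genes tended to lie lower in FAS43 than in N2, while no member passed the test alone. Of the 207 members tested, edgeR called 0, where 0.0186% of all 16099 genes were called, and DESeq2 called 0. At an unadjusted p under 0.05 there were 11 lower members (5.31%; 1.58% of all genes) and 0 higher (1.8% of all genes). The log2 fold change of FAS43 over N2 was negative for 169 members (81.6%), against 50.3% of all genes, and its median was -0.57 against -0.00.

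Both FAS43 libraries lay below both N2 libraries for 81 members (39.1%; 14.2% of all genes). They lay above them for 4 members (1.93%; 12.9% of all genes). Low genes in general leaned the same way: among the 3764 other genes between 0.420 and 3.15 CPM, the 10th and 90th percentiles of the members, the median was -0.35, with 24.3% below and 5.63% above. The members within that range had a median of -0.57, with 40% below. The difference between members and those genes was not tested.

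The 4 members above in both FAS43 libraries were sri-31, srv-15, srh-217 and sra-22, the last named after its values were seen. Sri-31 had 1.67 and 1.71 CPM in N2 and 2.32 and 4.19 CPM in FAS43. None passed the test.

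The listing minimum could itself choose members that were high in 1 strain. In L1, 19 members (179 of all genes) reached 10 counts in both N2 libraries and in neither FAS43 library. The reverse held for 0 members (7 of all genes). Of the 19 members, the 16 that were tested were all negative, as were all 136 tested genes listed in that way, so the listing set this count. Another 42 members (754 of all genes) reached 10 counts in both N2 libraries and 1 FAS43 library. Their median was -1.02 and all 42 were negative (90.9% of all genes of that kind). The reverse route held for 20 members (315 of all genes), with a median of 0.03 and 8 negative (23.6% of all genes of that kind). Among the 94 members with at least 10 counts in all 4 libraries, the median was -0.54 and 78 (82.98%) were negative, against 0.03 and 48.0% for all genes of that kind. Those genes were not matched to the members in level. Other genes at the members' level, listed by any route, had a median of -0.35 with 68.9% negative. Split by level, the median of the members was -0.57 under 1 CPM, -0.64 from 1 to under 5 CPM and -0.30 at 5 CPM or more. Members without exon overlap stood at -0.55.

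The median was negative in each superfamily. It was -0.50 for 99 Str members, -0.47 for 24 Sra members, -0.60 for 58 Srg members and -0.80 for 26 members of the families that stand alone. Negative values were held by 78 (78.8%), 15 (62.5%), 52 (89.7%) and 24 (92.3%) of them, against 68.9% of the other genes at the members' level, so the share in Sra was no higher than that of such genes. Among single families sra was an exception, with a median of 0.18 over 6 members, 2 of them negative. Among families with at least 3 listed members, all 12 tested srg, 6 srr, 6 srsx, 5 sru and 4 srbc members were negative. Without N2 replicate 1, 9 of 12 srg, 4 of 6 srr, 4 of 6 srsx, 3 of 5 sru and 4 of 6 srbc members were. These family and superfamily counts were not split by the route of listing. They include members listed through the N2 libraries alone, whose sign the listing set.

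**Figure D4:**
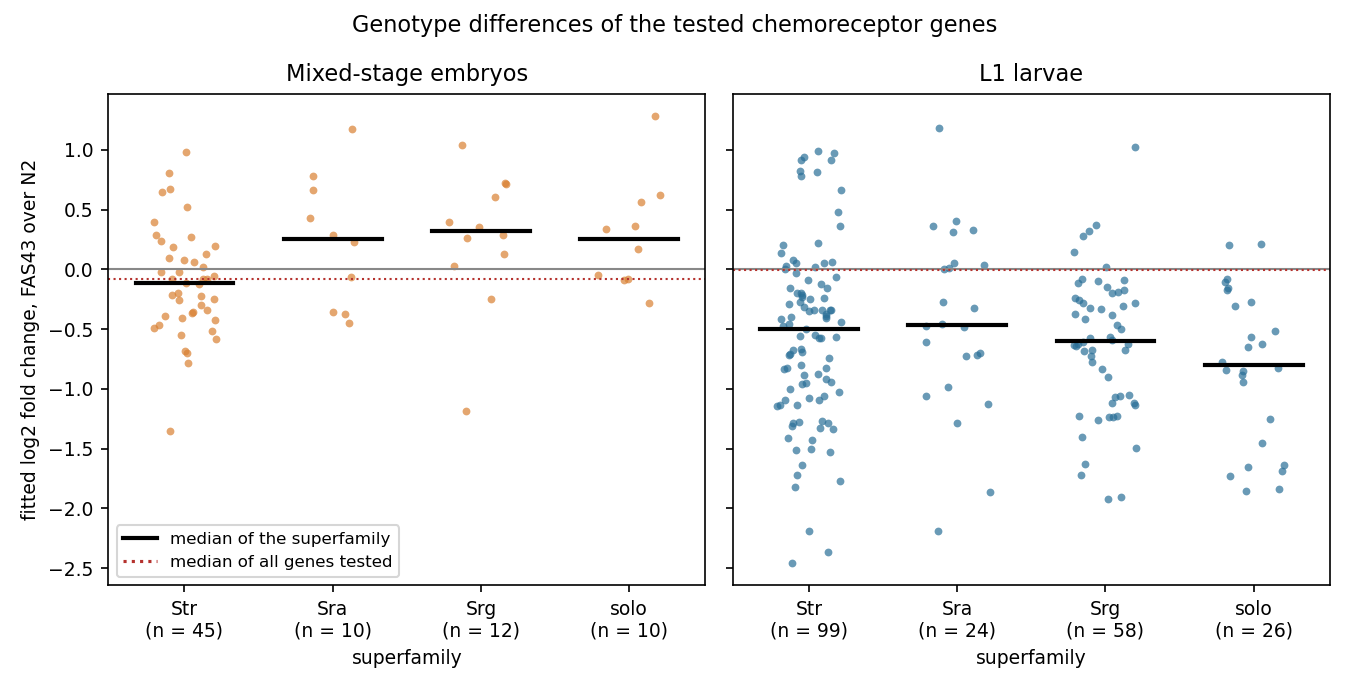
Fitted log2 fold change of FAS43 over N2 (y axis) for every tested member by superfamily, in embryos (77 members) and L1 (207 members); each point is a gene, black bars are superfamily medians and the dotted line is the median of all genes tested. The L1 medians run from -0.47 to -0.80, and the embryo medians from -0.12 to 0.32.

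The size of the L1 shift rested in part on 1 library. N2 replicate 1 was the highest of the 4 L1 libraries for 97 of 222 members (43.7%), although it was so for 17.04% of all genes. Without it the median was -0.29, with 137 of 218 members negative, and the superfamily medians were -0.15 for Str, -0.27 for Sra, -0.30 for Srg and -0.45 for the rest. In the oocyte, pan-neuronal, ciliary and cuticle lists, edgeR and DESeq2 called 0 genes between the strains in L1. The median of the 30 oocyte and early-embryo genes was 1.45, 1 of them was negative, and 19 had an unadjusted p under 0.05, all higher in FAS43; in the other 3 lists 0 did. The median of the 20 pan-neuronal genes was 0.18, with 6 negative and summed levels of 3743 and 2446 CPM in N2 and 2957 and 4169 CPM in FAS43. The median of the 38 ciliary genes was -0.28, with 33 negative and summed levels of 931 and 647 CPM in N2 and 818 and 700 CPM in FAS43. That of the 19 hypodermal cuticle genes was -0.57. The strains overlapped in the pan-neuronal, ciliary and cuticle sums. Their part in the result was not tested.

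Summed over all listed members, L1 larvae held 702 and 762 CPM in N2 and 479 and 549 CPM in FAS43, and the strains were apart. As a share of all counts this was 0.0754% and 0.0750% in N2 and 0.0508% and 0.0489% in FAS43. Without srr-4 and srw-85 the sums were 422 and 415 CPM against 255 and 320 CPM. With 2 libraries against 2, no exact permutation test can reach 0.05, and none was made.

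**Figure D5:**
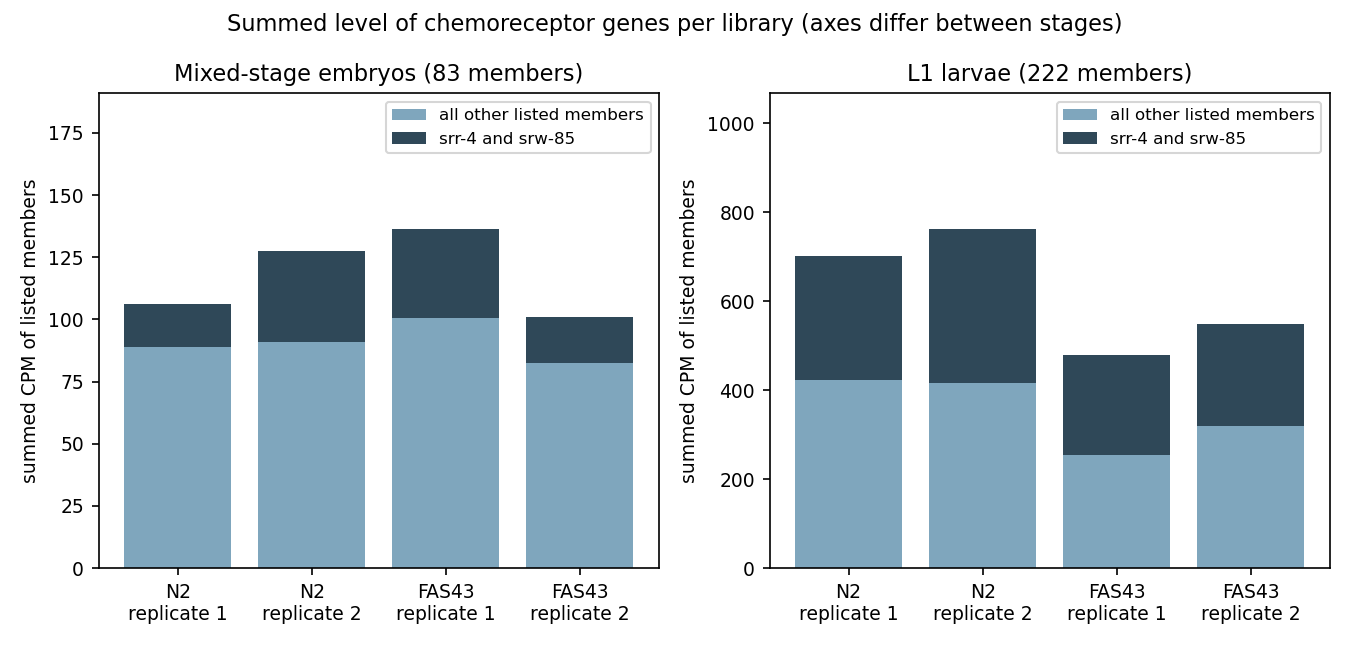
Summed CPM of listed members (y axis, from 0, different in each panel) in each library, split into srr-4 with srw-85 (dark) and all other members (light). In L1 both FAS43 bars, 479 and 549 CPM, are below both N2 bars, 702 and 762 CPM; in embryos the strains overlap between 101.1 and 136 CPM.

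The largest lower values in L1 among members with a mean of at least 1 CPM were those of srb-16, srt-22, sru-40 and srsx-25. Srb-16 had 3.44 and 1.34 CPM in N2 and 0.487 and 0.559 CPM in FAS43, or -2.19 on the log2 scale (SE 0.850, edgeR adjusted p = 0.9996). Srt-22 had 1.99 and 1.44 CPM against 0.524 and 0.373 CPM (-1.92, SE 0.859, edgeR adjusted p = 0.9996). In both genes the strains were apart. Sru-40 had 6.10 and 0.748 CPM in N2 and 0.187 and 1.68 CPM in FAS43, so that its value of -1.90 came from N2 replicate 1. Srsx-25, which shares exon bases with agt-1 on the other strand, had 2.15 and 1.28 CPM against 0.524 and 0.419 CPM (-1.86).

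The largest higher values were those of srv-15 (1.02), str-176 (0.97), sri-31 (0.94) and srj-14 (0.91), none of them called. Str-176 had 15.7 and 2.56 CPM in N2 and 8.91 and 27.2 CPM in FAS43, and srj-14 had 5.59 and 3.42 CPM against 4.04 and 12.997 CPM. The strains overlapped in both. Srg-31, srr-6 and srt-42, among the 6 highest L1 members, were each lower in both FAS43 libraries: srr-6 had 18.2 and 38.02 CPM in N2 and 9.32 and 6.38 CPM in FAS43, and srg-31 had 17.6 and 39.95 CPM against 12.8 and 11.6 CPM.

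The authors' deposited table marked 12 of 222 L1 members (5.41%) as significant, all lower in FAS43, against 3.56% of all listed genes. In the authors' deposited table these were srr-6, srj-19, srb-16, str-4, srt-22, srd-54, srsx-25, sri-74, str-261, srg-31, sre-15 and sri-39. The authors' adjusted p-value for each of them in that deposited table was 0.9998, and the mark followed the unadjusted value.

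In embryos, chemoreceptor genes as a group showed no lean to either strain that held in every setting. Of the 77 members tested, edgeR called 0, where 0.022% of all 13617 genes were called, 0 had an unadjusted p under 0.05 in either direction (0.595% of all genes higher, 0.103% lower), and DESeq2 called 0. The log2 fold change was negative for 39 members (50.6%), against 59.9% of all genes, and the median was -0.02 against -0.08. Both FAS43 libraries lay above both N2 libraries for 9 members (11.7%; 3.49% of all genes) and below them for 5 (6.49%; 7.46% of all genes). The median took either sign when a library was left out, from -0.23 to 0.31. It was 0.20 by library totals, with 26 of 77 members negative. With a filter of 1 CPM in 2 libraries it was 0.24, with 9 of 31 negative. The summed level was 106 and 127 CPM in N2 and 136 and 101.1 CPM in FAS43.

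The largest embryo values in each direction did not pass the test. Srh-195 had 1.94 and 1.36 CPM in N2 and 1.04 and 0.878 CPM in FAS43 (-0.78, SE 0.929, edgeR adjusted p = 0.9999). Srh-2 had 0.819 and 0.839 CPM in N2 and 1.65 and 0.998 CPM in FAS43 (0.67, SE 0.939, edgeR adjusted p = 0.9999). In srh-2 the strains were apart in both stages and in opposite directions, since in L1 it had 3.44 and 3.58 CPM in N2 and 1.72 and 2.24 CPM in FAS43. The test of that difference gave -1.69 (edgeR adjusted p = 0.9986). The other values were -0.69 for str-173, -0.49 for sri-59 and -0.36 for sre-13, and 0.62 for srr-6, 0.71 for srv-7 and 0.72 for sru-20.

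Genes that act with the receptors were set beside them. Between stages in N2, 6 of 9 sensory transduction channel genes (66.7%) rose, where 22.6% of all genes did, and 0 fell, among them ocr-2 (3.73, SE 0.892, edgeR adjusted p = 0.00405), tax-2 (2.83) and osm-9 (2.98). Of 16 receptor guanylyl cyclases of sensory neurons 9 (56.3%) rose. Of 23 G protein subunits and regulators 5 (21.7%) rose, a share near that of all genes. In neither list did a gene fall, where 16.2% of all genes did. All 3 tested chemoreceptors outside the naming rule rose, namely sro-1 (4.297) and the pheromone receptors daf-38 (4.28) and daf-37 (2.95). Of 9 receptor trafficking genes 1 rose and 2 fell, and odr-4 and odr-8 did neither, at -0.70 and -0.75. High shares were not particular to sensory genes: 73.3% of body wall muscle, 70% of pharyngeal, 60% of pan-neuronal and 53.8% of intestinal genes rose. The share was 5.26% for ciliary genes and 7.69% for sheath and socket glia genes. It was 0% for the cuticle genes and for the oocyte and early-embryo genes.

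Between the strains, 0 genes of these 5 lists were called by edgeR or DESeq2 at either stage, and 1 had an unadjusted p under 0.05, the G protein gene gpa-16, higher in FAS43 L1 (1.27, SE 0.609, edgeR adjusted p = 0.9996) and named after its values were seen. In L1 their medians were -0.31 for the channels, -0.23 for the guanylyl cyclases, 0.17 for the G protein genes, 0.21 for the trafficking genes and 0.10 for the other chemoreceptors, against -0.57 for the members. The lists were not matched to the members in level. Other genes at the members' level had a median of -0.35, and members at 5 CPM or more had one of -0.30. Tax-2 had 6.26 and 5.18 CPM in N2 L1 and 3.82 and 3.73 CPM in FAS43, and odr-4 had 41.5 and 44.3 CPM against 52.4 and 46.9 CPM.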

How the data were processed

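The authors deposited 1 table per stage with raw counts per gene for its 4 libraries, not normalized, per the file headers. The submitters' processing notes name edgeR 3.10.5, HTSeq 0.6.1, TopHat2 2.0.13 and the build WBcel235, without roles; no source used here gives their settings or the strand counted. Gene positions, biotypes and lengths came from the Ensembl release 115 annotation of WBcel235; length is the longest transcript's coding bases, in place of protein lengths. Protein and promoter sequences of the members were not analysed here.

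The deposited counts went into edgeR 4.0.16 under R 4.3.3 (filterByExpr, TMM factors, quasi-likelihood F-test, Benjamini-Hochberg adjustment over all genes tested). Genotype was the single term of a separate fit per stage, and all 8 libraries over the 13335 genes in both tables gave the stage contrasts and the difference between stages. CPM uses TMM library sizes. SE is the size of the log2 fold change divided by the root of F. The procedure was tested on simulated data. Alternatives were DESeq2 1.42.0, other scalings and filters, each library left out, and replicate blocks.

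Named members were the 6 highest per table, the highest of each family with at least 3 listed members, the 4 largest genotype values in each direction at a mean of at least 1 CPM, the largest called stage changes, members of known role and the highest listed in embryos alone; others complete a count of called or marked members, or are said to be chosen after their values were seen. Members, lists and rules were chosen with earlier results of these data known. The authors' log2 fold changes, log2 abundances, p-values and normalized signal, per the file headers, were not tested.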

Additional observations from a re-analysis of the deposited data

How the results depend on the processing

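Depth limits every result on single members, whose median total was 72.5 counts over 4 libraries in L1 and 73 in embryos. For FAS43 against N2, 0 members were called in either stage under every alternative run. The L1 median (-0.57) was -0.69 by library totals and ran from -0.71 to -0.29 with a library left out; the embryo median (-0.02) was 0.24 with a filter of 1 CPM in 2 libraries, 0.20 by library totals (where the median of all genes went from -0.08 to 0.07) and ran from -0.23 to 0.31. The labels give same-numbered libraries no link beyond the number. Their deviations from the group means correlated at -0.52 in embryos and -0.18 in L1, which cannot show whether they shared a preparation. Between stages in N2, the 21 calls became 3 with the replicate block (median 0.70) and ran from 5 to 22 with a library left out, lowest without N2 embryo replicate 1; the members' median ran from 0.66 to 1.22 and was 1.63 with the 1 CPM filter. Between stages in FAS43, the 6 calls became 13 with DESeq2 and 0 with the replicate block (median 0.11) and ran from 1 to 12; the members' median was 0.25 by library totals and ran from 0.15 to 0.70. With the numbers crossed, chosen after seeing the data, 26 members were called in N2 and 19 in FAS43. At 20 and 50 counts in 2 libraries, 109 and 43 members were listed in L1 and 40 and 14 in embryos. Without srr-4 and srw-85, mean sums were 89.9 CPM in N2 and 91.6 CPM in FAS43 embryos and 419 and 287 CPM in L1. Of single values, 7 turned sign, all with a library left out, over ranges that follow. In embryos str-173 ran from -1.24 to 0.44 (0.44 without N2 replicate 2), sre-13 from -0.65 to 0.44 (0.44 without N2 replicate 1) and srr-6 from -0.75 to 2.38 (-0.75 without FAS43 replicate 1, -0.11 without N2 replicate 1). In L1 sru-40 ran from -4.17 to 0.26 (0.26 without N2 replicate 1), srj-14 from -0.16 to 1.51 and str-176 from -0.045 to 2.76 (both lowest without FAS43 replicate 2). Another 36 single values kept their direction and lost their call. The remaining 376 were unchanged. They include strain values that were uncalled in the main fit and stayed so, and comparisons of the 6 highest members between level scales. Thus 376 is not a number of calls kept. The cause of the changes was not tested.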

Other observations

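Of the 255 chemoreceptor genes, 26 are annotated as pseudogenes. The highest of them in L1 were srsx-20, with 3.76 and 2.03 CPM in N2 and 1.39 and 1.77 CPM in FAS43, and str-179, with 2.41 and 2.19 CPM against 3.48 and 1.35 CPM. In embryos str-179 had 4.43 and 4.96 CPM in N2 and 3.58 and 5.43 CPM in FAS43, at 4.56 CPM per kb in N2 between str-173 and srt-63. For FAS43 over N2 in L1, the median of the 19 tested pseudogenes was -0.41 on the log2 scale, with 15 negative, and the 188 other members stood at -0.58. Summed over members without pseudogenes, L1 held 680.4 and 747 CPM in N2 and 465 and 536 CPM in FAS43.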
